A study of Mus musculus with 4 samples.

Results

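Igf2, Ascl2, Kcnq1, Cdkn1c and Phlda2 are imprinted genes that lie near each other on distal mouse chromosome 7. They were taken as every non-control probe that the array annotation names for one of them, which gave 222 probes. Of these, 143 passed the filter on dim input DNA that was applied to all probes, and all 5 genes had at least 3 such kept probes. They are 5 of the 18332 genes measured in the series. The study measured methylated DNA in leukaemic mouse cells, WT or KO, grown with or without decitabine, a nucleoside drug that is built into DNA and depletes DNA methyltransferases by holding them there. By its title the series is about MLL5, the efficacy of that drug and DNA methylation in acute myeloid leukaemia.

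Imprinted genes are expressed mainly from the copy inherited from 1 parent, and the choice is kept by DNA methylation at control regions. Igf2 belongs to a domain run by a control region near H19, while Kcnq1, Cdkn1c, Phlda2 and Ascl2 belong to a domain run by a CpG-rich region inside Kcnq1, where the long RNA Kcnq1ot1 starts. That region is methylated on the maternal copy, and the RNA made from the unmethylated paternal copy silences its neighbours. The arrays do not separate the parental copies, so each value is a sum over both.

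Each of 4 groups had 1 array. The untreated WT and KO cells received no decitabine (0 nM), and the treated ones were given decitabine at 20 nM, repeated every 24 h over 3 days. All cells were harvested at 72 h and grown with serum and the cytokines IL-6, IL-3 and SCF. The source names give the cells as Mll5 WT or KO with the suffix HM, but for KO samples the genotype field reads HOXA9 knockout, so the labels disagree on which gene is lacking. The cell line field reads MII5 for all 4. The labels say neither how many clones or animals the cells came from nor whether the groups were separate cultures. Methylated DNA was pulled down with an antibody (MeDIP), amplified over the whole genome together with input DNA of the same cells, and hybridised in Cy3 against the input in Cy5. No dyes were swapped, so a dye effect cannot be told apart from enrichment, and since no slide was shared between arrays, group and slide cannot be told apart either. The arrays measure DNA, so neither the labelled cell type nor the absence of the targeted gene was checked against expression.

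All values below are log2 ratios of MeDIP over input, centred on the median of all probes of the array. A gene's level is the mean over its kept probes, and its SD is the spread over those probes within 1 array, not over replicates. MeDIP signal was weak: it was well above background at 4.21%, 4.21%, 14.6% and 16.5% of the 328399 kept probes on the arrays of untreated WT, untreated KO, treated WT and treated KO cells, the order used throughout. The median gene stood at -0.72, -0.64, -0.48 and -0.46. Among the 143 kept probes of the 5 genes the signal was well above background at 5, 6, 27 and 28 probes, or 3.50%, 4.20%, 18.9% and 19.6%. Without replicates, any difference between 2 arrays is given as a description.

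The probes that carry the description are those with MeDIP well above background, since a change can be sized only there. Of the 143 kept probes, 3 reached this on all 4 arrays (2.10%, against 2.74% of all kept probes) and 17 on both decitabine arrays only (11.9%, against 7.06%). Another 111 reached it on no array (77.6%, against 80.7%). The 3 probes detected on all 4 arrays lie in 500 bp windows with an observed over expected CpG ratio under 0.48. These windows held 4 CpGs at Kcnq1, 12 at Cdkn1c and 3 at Phlda2. A probe detected with decitabine but not without it can come out only as higher or unsized. The direction of its decitabine fold was therefore fixed by how it was picked and is no separate result. The sequences of 10 of the detected probes described below are shown here. No decitabine fold could be given for the one at 150481613. Some probes sized below are not shown, among them those at 150289602 and 150687051, which were detected on all 4 arrays. The sequences are written on the plus strand of mm9, in lower case, with each CpG, the pair of bases at which methylation occurs, in capitals.
Igf2, intron, chr7:149842124-149842169: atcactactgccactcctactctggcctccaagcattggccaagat
Igf2, intron, chr7:149850229-149850273: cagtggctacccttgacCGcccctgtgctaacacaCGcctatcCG
Ascl2, intron, chr7:150153430-150153474: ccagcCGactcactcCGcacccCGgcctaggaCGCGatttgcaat
Ascl2, intron, chr7:150153574-150153618: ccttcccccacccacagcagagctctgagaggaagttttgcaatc
Kcnq1, at the start of Kcnq1ot1, chr7:150481208-150481262: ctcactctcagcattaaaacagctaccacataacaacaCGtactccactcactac
Kcnq1, at the start of Kcnq1ot1, chr7:150481613-150481657: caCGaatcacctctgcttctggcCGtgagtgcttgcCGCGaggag
Cdkn1c, coding exon, chr7:150646296-150646340: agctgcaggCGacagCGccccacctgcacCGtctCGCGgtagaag
Cdkn1c, upstream, chr7:150649132-150649176: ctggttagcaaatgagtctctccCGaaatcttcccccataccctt
Cdkn1c, upstream, chr7:150650897-150650941: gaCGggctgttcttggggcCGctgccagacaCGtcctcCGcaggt
Phlda2, upstream, chr7:150688725-150688769: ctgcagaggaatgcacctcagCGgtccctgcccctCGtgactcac

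**Figure D1:**
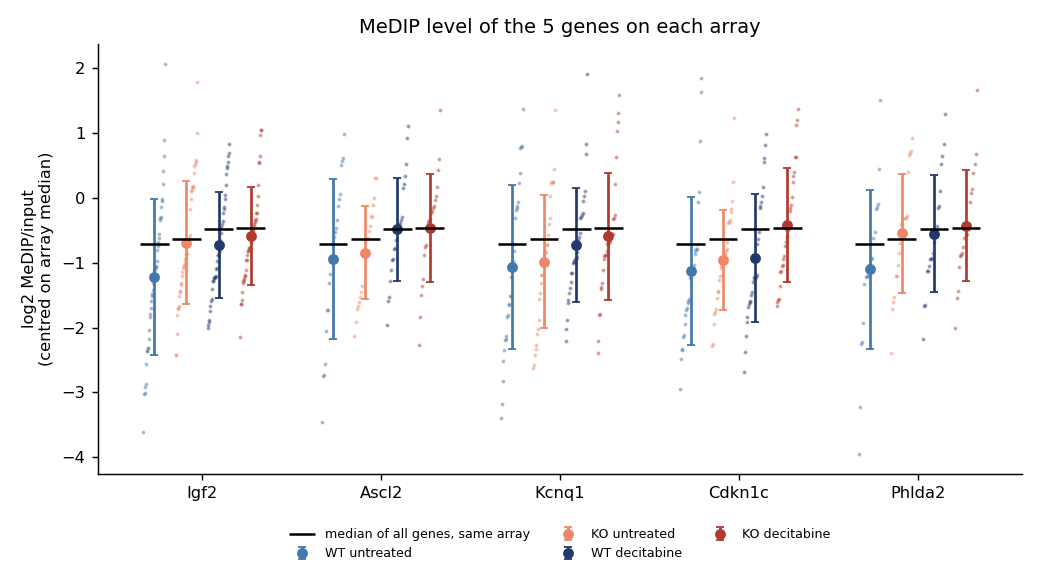
Log2 MeDIP over input (y axis, centred on the array median) of the kept probes of the 5 genes on the 4 arrays. Small dots are probes, large dots are gene means, bars are ± SD over probes and black lines are the median of all genes on the same array. All 5 genes lie below that line on the WT untreated array, between -1.22 and -0.95 against -0.72.

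On the WT untreated array all 5 genes stood below the median gene, at percentiles 13.7 (Igf2) to 30.7 (Ascl2) of the 18332 genes. Their order was Igf2, Cdkn1c, Phlda2, Kcnq1 and Ascl2 from lowest to highest, and every pair of neighbours differed by less than the SD over probes, which was 1.14 to 1.27. On the KO decitabine array they lay between -0.60 (Kcnq1) and -0.42 (Cdkn1c), close to the median gene at -0.46. The plot of levels by array shows that the gene means differ between arrays by less than the probes of 1 gene differ among themselves. The levels are not a methylation fraction, and low values were linked to bright input: over the 143 probes the Spearman correlation of level with input was -0.82, -0.78, -0.46 and -0.16. These points share their arrays and the input is the denominator of the ratio, so it is given as a description.

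Which of the 5 genes moved with decitabine was asked first. In WT cells the decitabine array was higher than the untreated one by 0.46 for the median of the 5 genes, against 0.25 for the median of all genes. In KO cells the same difference was 0.38, against 0.21. All 5 gene means were above 0 in both, as were 79.7% and 76.1% of all genes. Of the 143 kept probes of the 5 genes, 62.9% in WT and 61.5% in KO cells were higher with decitabine. Over the kept probes of all named genes it was 55.3% and 53.7%, the shares to set beside the probe counts by gene below. Centring on probes bright in both channels moved the median of all genes to -0.37 in WT and -0.69 in KO cells and turned all 5 genes below 0 in both. With loess within arrays 4 of the 5 in WT cells and all 5 in KO cells were below 0 (Phlda2 in WT cells kept 0.15). The sign of the change therefore depended on the scaling. Set against the median of all genes, the median of the 5 was above it by 0.02 to 0.21 under all 9 alternatives in WT cells. In KO cells it was above it under 7 of 9, the exceptions being normexp and loess, with a range from -0.09 to 0.17.

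None of the 5 genes reached a 2-fold change with at least 80% of kept probes moving that way. Such a change with higher values was found at 1.36% of all genes in WT cells and 1.14% in KO cells, and with lower values at 0.0218% and 0.0109%. In the additive limma model over the 4 arrays, Ascl2 rose with decitabine by 0.42 (SE 0.12, adjusted p = 0.029) and Kcnq1 by 0.36 (SE 0.12, adjusted p = 0.046), after Benjamini-Hochberg adjustment over all genes. This is 2 of 5 genes, beside 29.8% of all genes called higher and 1.73% lower. The estimates were 0.37 for Cdkn1c (SE 0.13, adjusted p = 0.057), 0.33 for Phlda2 (SE 0.14, adjusted p = 0.091) and 0.30 for Igf2 (SE 0.14, adjusted p = 0.11), against a median of 0.23 over all genes. Of 9 alternative settings, 8 ended both calls and the MeDIP channel alone, without the input, called all 5 higher, beside 83.4% of all genes. The model has 1 residual degree of freedom, and the errors reflect only the departure of the 4 arrays from additive effects. They are also drawn towards the variance over all genes, with 9.04 prior degrees of freedom, so they rest little on each gene's own values.

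**Figure D2:**
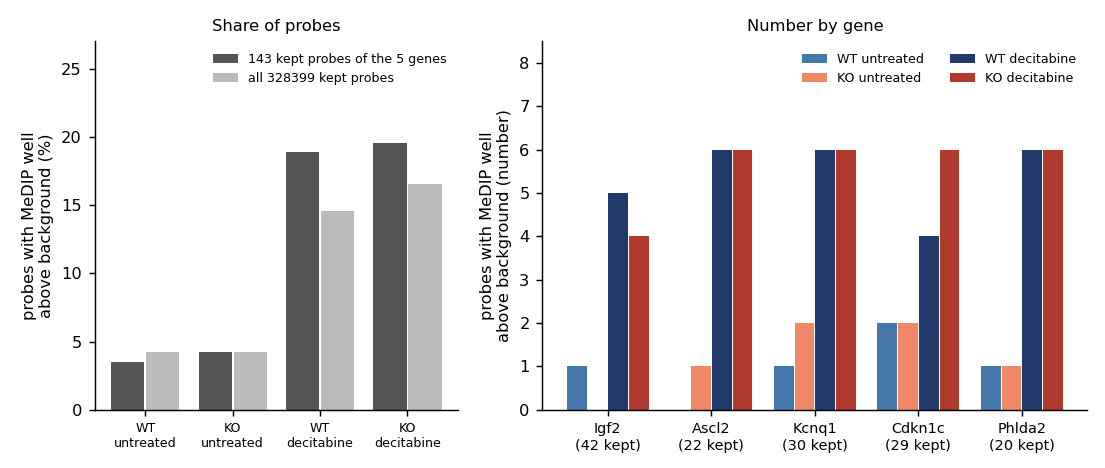
Probes with MeDIP signal well above background on each of the 4 arrays, as a percentage of kept probes (left, the 5 genes in dark grey and all probes in light grey) and as a number for each gene (right). The share in the 5 genes goes from 3.50% and 4.20% on the untreated arrays to 18.9% and 19.6% on the decitabine arrays.

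Detection does not use the centring, but the dimmest signal counted as detected also differed between arrays. It was 1400, 1250, 1035 and 850 intensity units, 1.65-fold lower on the KO decitabine than on the WT untreated array. The numbers of probes with MeDIP well above background were 1, 0, 5 and 4 of 42 for Igf2, and 0, 1, 6 and 6 of 22 for Ascl2. Kcnq1 had 1, 2, 6 and 6 of 30. Cdkn1c had 2, 2, 4 and 6 of 29, and Phlda2 1, 1, 6 and 6 of 20. The decitabine arrays were the higher ones for every gene, and the plot of detected probes shows the same step for the array as a whole. Detected probes of the 5 genes were also those with bright input: their median log2 input signal, relative to the array, was 3.69, 3.59, 2.95 and 2.39, against 0.94, 0.78, 0.85 and 0.58 for the others. The part of overall MeDIP brightness and of the lower limit of detection in the step was not tested.

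**Figure D3:**
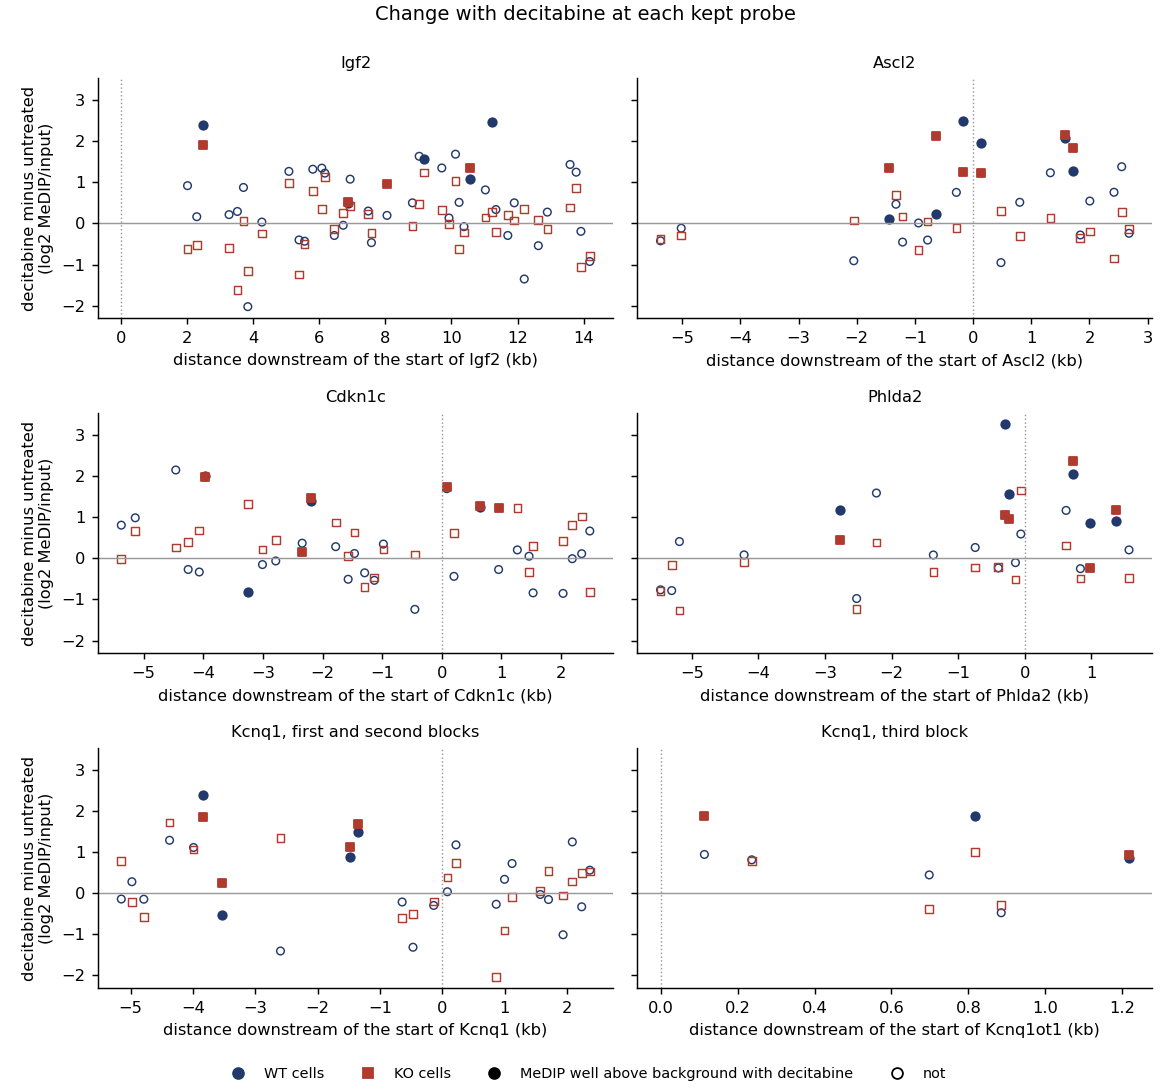
Difference between the decitabine and untreated arrays (y axis, log2 MeDIP over input centred on the array median) at each kept probe against its distance downstream of the gene's start in kb, for WT cells (circles) and KO cells (squares). Filled symbols had MeDIP well above background on the decitabine array. They were picked by their signal with decitabine, so their height is no separate result, and other scalings move all symbols. Open symbols lie on both sides of 0 at every gene.

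Igf2 encodes insulin-like growth factor 2, a fetal growth factor that signals through the Igf1 receptor and is normally made from the paternal copy. On mm9 it lies at chr7:149836673-149852721 on the minus strand. Its 42 kept probes covered chr7:149838506-149850738, of which 29 lay in introns, 11 in untranslated exon and 2 in coding exon. The level was -1.22 ± 1.20, -0.69 ± 0.94, -0.73 ± 0.81 and -0.58 ± 0.75 (SD over 42 probes). The WT untreated array was the lowest, and the other 3 lay close together.

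In WT cells Igf2 was 0.49 ± 0.93 higher with decitabine, with 30 of 42 probes higher, and in KO cells 0.11 ± 0.74, with 24 of 42. The KO difference was below 0 under 6 of the 9 alternatives, and the WT difference under 2. The intron probe at 149842124, without a CpG and in a 500 bp window with 4, read -1.32, -1.15, -0.24 and 0.20. It had MeDIP well above background on the WT untreated and both decitabine arrays, which gave a 2.11-fold higher ratio with decitabine in WT cells and at least 2.54-fold in KO cells. An "at least" fold sets the ratio against the dimmest detectable signal of the other array. Where the probe's own undetected signal on that array was brighter, that signal was used instead. The CpG-dense intron probe at 149850229 read -3.62, -2.42, -1.22 and -0.51 and was detected on both decitabine arrays only, at least 1.23-fold higher in WT and at least 1.30-fold in KO cells. All folds given here and below are relative to the array median and open to dye bias. Centring on probes bright in both channels lowered every decitabine difference by the same amount within a genotype. For Igf2 it took the difference to -0.13 in WT and -0.79 in KO cells. Under that centring the smaller "at least" folds no longer hold.

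The control region of Igf2 near H19 was not analysed here. No probe in the tables used lay from 5000 bp before to 2000 bp after the start of H19. The nearest probe at lower coordinates ended at 149721584. The nearest at higher coordinates started at 149838506 and was the first probe of Igf2 itself. RefSeq promoter windows, the 250 bases before a start on GRCm38.p6, were matched by sequence to mm9 for 4 Igf2 starts. They held 1, 10, 22 and 6 CpGs, against a median of 6 over 32851 windows.

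Kcnq1 encodes the pore-forming subunit of a voltage-gated potassium channel. It lies at chr7:150293159-150612955 on the plus strand, and its 30 kept probes fell in 3 blocks. The whole-gene level was -1.06 ± 1.27, -0.98 ± 1.02, -0.73 ± 0.88 and -0.60 ± 0.98 (SD over 30 probes). Both decitabine arrays lay above both untreated ones, by 0.34 ± 0.91 in WT and 0.39 ± 0.90 in KO cells. In these, 17 and 19 of 30 probes were higher, and both differences were below 0 with loess and with centring on bright probes.

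The first Kcnq1 block, chr7:150287852-150290593 upstream of the gene, had 8 kept probes at -0.82, -0.94, -0.46 and -0.17. The second, at the gene's start (chr7:150291656-150295550), had 16 kept probes at -1.02, -0.84, -0.84 and -0.75 and moved least with decitabine, by 0.18 ± 0.79 in WT and 0.09 ± 0.86 in KO cells. In the first block the probe at 150289602 had MeDIP well above background on all 4 arrays, reading 0.23, -0.57, -0.31 and -0.33. Its ratio with decitabine was 0.69-fold that without in WT cells and 1.18-fold in KO cells. The probe at 150291656 of the second block read -0.06, 0.45, 0.83 and 1.58, at least 1.85-fold higher in WT and 2.19-fold higher in KO cells.

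The third Kcnq1 block is the CpG-rich control region. The start of Kcnq1ot1, whose RNA runs on the minus strand, was placed at 150482452 on mm9 through an exact match of the RefSeq window, since the annotation used does not list it. All 8 probes within 2000 bp of it carry the name Kcnq1 and lie between 1217 bp downstream and 61 bp upstream. The 6 kept ones lie 114 to 1217 bp downstream, in an intron of Kcnq1. Their mean was -1.52 ± 1.14, -1.42 ± 1.09, -0.78 ± 0.79 and -0.76 ± 1.16, the lowest of the 3 Kcnq1 blocks on both untreated arrays.

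With decitabine this block was 0.74 ± 0.76 higher in WT cells (5 of 6 probes) and 0.66 ± 0.85 in KO cells (4 of 6), while the genotypes differed by 0.10 ± 0.50 untreated and 0.02 ± 0.71 treated. No probe had MeDIP well above background on the untreated arrays, and 2 had on each decitabine array. The probe at 150481208, at 1217 bp, read -0.18, 0.23, 0.67 and 1.17. Centred on the array median, it was at least 1.56-fold higher with decitabine in WT and at least 1.07-fold in KO cells. The KO bound does not hold when centring on bright probes. The probe at 150481613 was detected on the WT decitabine array alone, reading -2.82, -1.89, -0.94 and -0.88. The probe at 150482316, 114 bp downstream, was detected on the KO decitabine array alone, reading -2.51, -2.42, -1.57 and -0.55. No decitabine fold could be given for either of the last pair.

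**Figure D4:**
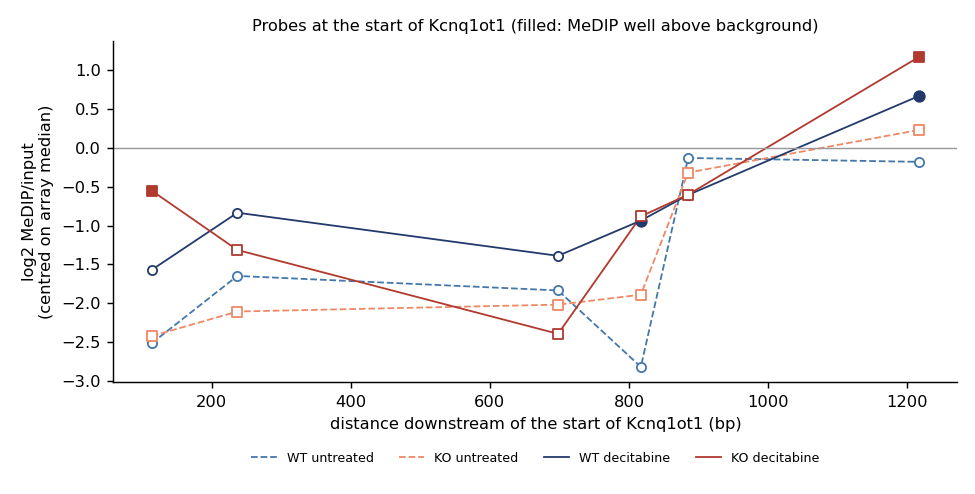
Log2 MeDIP over input (y axis, centred on the array median) of the 6 kept probes against their distance downstream of the start of Kcnq1ot1 in bp, with 1 line per array. Filled symbols mark MeDIP well above background. The probe at 885 bp lies below its untreated values on both decitabine arrays, between -0.61 and -0.13 on all 4.

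The plot around the Kcnq1ot1 start shows that its probes did not move together. The probe 885 bp downstream read -0.13, -0.32, -0.61 and -0.60, and that at 698 bp -1.83, -2.02, -1.39 and -2.39. Dense CpG marks the region: the 500 bp windows around its kept probes had a median observed over expected CpG ratio of 0.85. The promoter window of Kcnq1ot1 itself held 5 CpGs.

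Cdkn1c encodes p57, an inhibitor of cyclin-dependent kinases expressed from the maternal copy. It lies at chr7:150644255-150646955 on the minus strand, with 29 kept probes from 150644443 to 150652353, 18 of them outside the gene. Its level was -1.13 ± 1.14, -0.96 ± 0.77, -0.93 ± 0.99 and -0.42 ± 0.88 (SD over 29 probes). The KO decitabine array was the highest, at percentile 55.9 of all genes, while the other 3 lay between percentiles 9.33 and 18.4.

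Decitabine moved Cdkn1c by 0.20 ± 0.87 in WT cells (15 of 29 probes higher) and by 0.54 ± 0.69 in KO cells (24 of 29). The WT value was below 0 under 4 of the 9 alternatives and the KO value under 2. The difference between these changes was 0.34, at percentile 91.9 of all genes, and was not tested beyond that rank. The upstream probe at 150649132, 2199 bp before the start, had MeDIP well above background on all 4 arrays and read -1.23, -0.35, 0.16 and 1.12. It was 2.63-fold higher with decitabine in WT and 2.77-fold in KO cells, and 1.85-fold and 1.94-fold higher in KO than in WT cells without and with treatment. The ratio of KO lay above that of WT in both treatments, and the treated ratio above the untreated one in both genotypes. The log2 input of this probe, relative to the array, was 3.69, 2.88, 3.32 and 2.68, lower in KO cells in both treatments. The part of the input in the genotype folds was not tested.

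At 2 further Cdkn1c probes the decitabine signal was detected on both treated arrays. The upstream one at 150650897 read -2.15, -0.78, -0.15 and 1.20, at least 1.41-fold higher in WT and at least 2.55-fold in KO cells. The coding-exon probe at 150646296 read -2.49, -1.44, -1.22 and -0.16, at least 1.10-fold and at least 1.84-fold higher. Both treated arrays could be compared there, and KO exceeded WT by 2.56-fold and 2.09-fold. On these arrays the log2 input was lower in KO than in WT cells. It was 1.70 against 2.47 at 150650897 and 2.47 against 3.30 at 150646296.

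At a pair of upstream probes detection followed the genotype, in opposite ways. The probe at 150649271 was detected on both KO arrays only and read -1.09, 1.23, -0.72 and 1.37, as 77 of all 328399 kept probes were (0.023%). The probe at 150650178 was detected on both WT arrays only and read 1.64, -1.08, 0.81 and 0.24, a pattern of 258 probes (0.079%). At 150649271 KO was at least 1.02-fold above WT without treatment, and no fold could be given with decitabine. At 150650178 WT was at least 1.59-fold above KO without treatment and at least 1.16-fold with decitabine. The readings of undetected signals therefore overstate what could be sized. Neither probe holds a CpG. Both are single features of the array, and whether a sequence difference between the cells is involved was not tested.

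Phlda2 encodes a small pleckstrin-homology protein that restrains placental growth and is expressed from the maternal copy. It lies at chr7:150687450-150688446 on the minus strand. Its 20 kept probes, 16 of them outside the gene, read -1.10 ± 1.23, -0.54 ± 0.92, -0.55 ± 0.90 and -0.43 ± 0.85 (SD over 20 probes). As at Igf2, the WT untreated array was the lowest and the other 3 lay close together.

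With decitabine Phlda2 was 0.55 ± 1.05 higher in WT cells, with 14 of 20 probes higher, and was below 0 under 1 alternative, centring on bright probes. In KO cells the mean difference was 0.11 ± 0.94 while the median over probes was -0.19, and 8 of 20 probes were higher. The KO value was below 0 under 7 of the 9 alternatives. Its 16 kept probes around the gene (chr7:150686496-150691240) differed by 0.76 ± 1.05 in WT and 0.29 ± 0.94 in KO cells. The 4 kept probes 4216 to 5472 bp upstream of the start went the other way, by -0.26 ± 0.60 and -0.58 ± 0.56, and in KO cells none of the 4 was higher with decitabine. None of those 4 had MeDIP well above background on any array.

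The probe at 150688725, 301 bp upstream of Phlda2, read -3.95, -1.61, -0.69 and -0.55, and was at least 2.24-fold higher with decitabine in WT and at least 1.74-fold in KO cells. The probe at 150687051, beyond the gene's far end, had MeDIP well above background on all 4 arrays and read -1.04, -1.04, -0.13 and 0.14. It was 1.88-fold higher in WT and 2.26-fold in KO cells while the untreated genotypes differed by 0.0034 on the log2 scale. This probe holds no CpG, and the 500 bp window around it held 3. The promoter window of Phlda2 held 21 CpGs.

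Ascl2 encodes a basic helix-loop-helix transcription factor needed in the placenta and in intestinal stem cells, and is expressed from the maternal copy. It lies at chr7:150152727-150155169 on the minus strand. Its 22 kept probes read -0.95 ± 1.23, -0.85 ± 0.72, -0.49 ± 0.80 and -0.47 ± 0.83 (SD over 22 probes). Both untreated arrays lay below both treated ones, and the genotypes nearly coincided within each treatment. The decitabine difference was 0.46 ± 0.96 in WT cells (14 of 22 probes) and 0.38 ± 0.89 in KO cells (13 of 22). Each was below 0 under 2 of the 9 alternatives, loess and centring on bright probes.

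The Ascl2 difference was not spread evenly over the gene. At its 6 probes in windows of middle CpG density the change was 1.35 ± 1.05 in WT and 0.99 ± 1.04 in KO cells, while at its 13 CpG-poor probes it was 0.09 ± 0.62 and 0.18 ± 0.82. Its 3 CpG-dense probes differed by 0.27 ± 1.11 and 0.04 ± 0.32. The intron probe at 150153574 read -2.73, -2.12, -0.66 and 0.03. Its ratio was at least 4.20-fold higher with decitabine in WT cells and 4.46-fold higher in KO cells, where both arrays had MeDIP well above background. The neighbouring intron probe at 150153430 read -2.56, -1.66, -1.28 and 0.17, at least 1.86-fold higher in WT and at least 3.32-fold in KO cells, and among treated cells 2.73-fold higher in KO than in WT. Its log2 input in treated cells was 3.06 in KO against 4.05 in WT. The promoter probe at 150155316, 169 bp upstream of the start, read -3.46, -1.45, -0.96 and -0.20, at least 1.32-fold and at least 1.56-fold higher with decitabine.

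That last probe lies inside the Ascl2 promoter window, which is shown because the data bear on it directly. It is the RefSeq window of GRCm38.p6, found once on mm9 at chr7:150155170-150155419, written in the direction of the gene with CpGs in capitals. It held 19 CpGs, and 19.7% of 32851 promoter windows of the same length held as many or more.
Ascl2 promoter: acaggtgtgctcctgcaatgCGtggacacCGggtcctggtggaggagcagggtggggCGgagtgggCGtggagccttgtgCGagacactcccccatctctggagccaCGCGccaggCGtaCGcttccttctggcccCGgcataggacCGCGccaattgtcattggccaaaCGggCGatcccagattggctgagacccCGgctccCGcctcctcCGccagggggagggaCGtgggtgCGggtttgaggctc

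**Figure D5:**
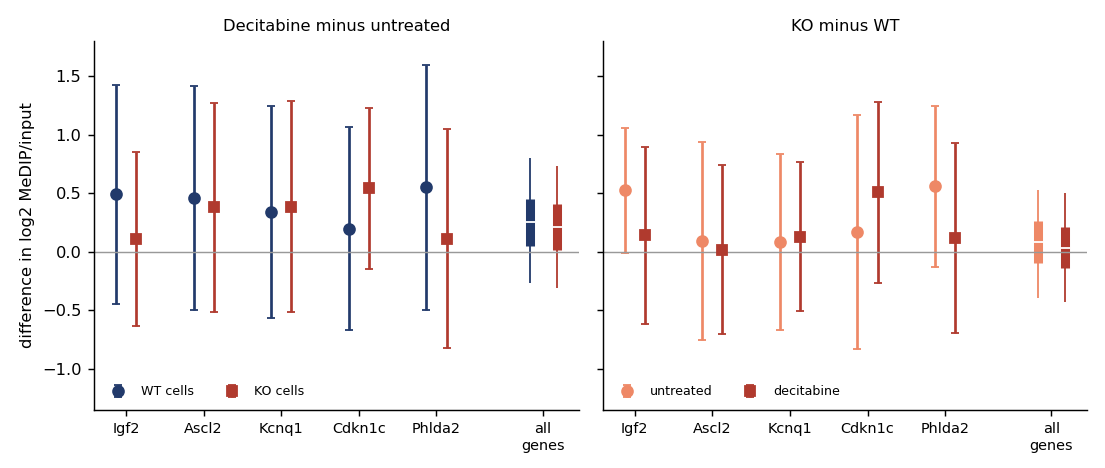
Difference in log2 MeDIP over input between decitabine and untreated arrays (left, WT and KO cells) and between KO and WT arrays (right, untreated and decitabine). Points are means over kept probes with ± SD over probes, and the bars at the right of each panel are the 25th to 75th percentiles of all genes with thin lines to their 5th and 95th percentiles. Without treatment Igf2 and Phlda2 stand 0.53 and 0.56 above WT and Cdkn1c 0.17, and with decitabine Cdkn1c stands 0.51 above WT, Igf2 0.14 and Phlda2 0.12.

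The second question was how KO cells differed from WT cells. Without treatment the median of the 5 genes was 0.17 higher in KO cells, against 0.09 for all genes, and with decitabine 0.13, against 0.04. All 5 gene means were above 0 in both, as were 62.9% and 55.5% of all genes, but 3 of 5 turned below 0 with loess without treatment and 4 of 5 with decitabine. Of the 143 kept probes of the 5 genes, 71.3% were higher in KO cells without and 64.3% with treatment. Over the kept probes of all named genes it was 56.9% and 52.3%. None of the 5 passed 2-fold with at least 80% of probes, beside 0.327% of all genes called higher and 0.0927% lower without treatment, and 0.524% and 0.0655% with it. In limma no gene passed for genotype (adjusted p from 0.16 to 0.80), beside 4.09% of all genes called. At an unadjusted limma p under 0.05 there were 3 of 5 beside 23.6% of all genes, namely Cdkn1c, Igf2 and Phlda2, with estimates of 0.34, 0.33 and 0.34. With normexp background correction 2 genes passed, Igf2 and Cdkn1c (adjusted p = 0.043 and 0.041), beside 12.6% of all genes under that setting.

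Without treatment Igf2 was 0.53 ± 0.53 higher in KO than in WT cells, with 38 of 42 probes higher, and stood at percentile 94.9 of all genes. Phlda2 was 0.56 ± 0.69 higher, with 18 of 20 probes higher, at percentile 95.9. Both were above 0 under all 9 alternatives, from 0.10 to 0.66 for Igf2 and from 0.31 to 0.72 for Phlda2. Igf2 had 1 and 0 probes with MeDIP well above background on these arrays and Phlda2 1 and 1, so the sizes rest on dim probes. The input of Igf2 was also lower in KO cells, by 0.35 on the log2 scale, and that of Phlda2 by 0.22, against 0.05 for the median gene, and with the MeDIP channel alone the differences were 0.14 and 0.31. The part of the input in the difference was not tested further.

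With decitabine the order changed. Cdkn1c was 0.51 ± 0.77 higher in KO cells, with 21 of 29 probes higher, at percentile 95.2, while the 4 other genes differed by 0.02 (Ascl2) to 0.14 (Igf2). The Cdkn1c value was above 0 under all 9 alternatives, from 0.13 to 0.63. Its input was 0.38 lower in KO than in WT cells (percentile 11.3), and the MeDIP channel alone gave 0.21. As the plot of differences shows, Igf2 and Phlda2 led without treatment and Cdkn1c with it. Put the other way, the KO minus WT difference of the decitabine changes was -0.39 for Igf2 and -0.44 for Phlda2 (percentiles 10.2 and 7.59 of all genes), 0.34 for Cdkn1c, and -0.08 and 0.05 for Ascl2 and Kcnq1. No replicate allows a test of these differences.

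The probes were also grouped by CpG density. A 500 bp window is called CpG-dense here where its GC content was at least 55% and its observed over expected CpG ratio 0.75 or more, and CpG-poor where that ratio was under 0.48. Of the 24 kept CpG-dense probes of the 5 genes, 22 were higher in KO than in WT cells under decitabine (91.7%), with a median of 0.74. Of the 1970 CpG-dense probes of chromosome 7, 75.3% were higher, with a median of 0.49. Without treatment 18 of the 24 were higher, with a median of 0.72, against 72.4% of the probes and a median of 0.38 on the chromosome. At the 87 CpG-poor probes of the genes 54.0% were higher with decitabine, against 48.8% on the chromosome. Without treatment it was 67.8%, against 55.7%. At the 32 probes of middle density 71.9% were higher with decitabine, against 59.4% on the chromosome. Without treatment it was 78.1%, against 62.4%, so the classes differed less there than under decitabine.

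Cdkn1c and Igf2 held most of the CpG-dense probes. All 8 of Cdkn1c were higher in KO than in WT cells under decitabine, by 1.03 ± 0.57, and without treatment by 0.33 ± 0.67. All 7 of Igf2 were higher both with decitabine, by 0.68 ± 0.27, and without, by 0.85 ± 0.41. Of these 15 probes, 2 had MeDIP well above background on the WT decitabine array and 5 on the KO decitabine array. On either untreated array it was 0 of all 24 CpG-dense probes. The input of all 7 Igf2 probes was lower in KO than in WT cells in both treatments. At 149850229, for example, it read 3.33, 2.66, 3.22 and 2.35 on the log2 scale. Over all kept probes of Cdkn1c the input was lower in KO cells by 0.09 without and by 0.38 with treatment. The part of the input in these differences was not tested. With base composition removed, the Cdkn1c difference under decitabine was 0.27 in place of 0.51, and that of Igf2 without treatment 0.33 in place of 0.53.

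The neighbours of the 5 genes were taken from fixed lists. Of 16 listed genes of the domain 13 had enough probes, and in limma 2 rose with decitabine, Dhcr7 by 0.43 (SE 0.12, adjusted p = 0.027), a cholesterol synthesis enzyme, and Th by 0.42 (SE 0.12, adjusted p = 0.028), tyrosine hydroxylase. Their median estimate was 0.21, close to the 0.23 of all genes, and the lowest were Ins2 at -0.11 and Tnfrsf23 at -0.08. Of 8 flanking genes measured, 1 rose, Cttn by 0.43 (adjusted p = 0.026), with a median of 0.25. Both counts stand beside the 29.8% of all genes called higher. For genotype none of these 13 and 8 genes passed in limma, and at an unadjusted p under 0.05 there were 2 and 1, beside 23.6% of all genes. Centring on kept probes called 0 genes in both lists, beside 11% of all genes called higher. Centring on bright probes called 9 and 5 genes lower, beside 59.2% of all genes.

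In the insulin-like growth factor system, which carries the Igf2 signal, all 15 listed ligands, receptors, secreted binding proteins and mRNA-binding proteins were measured. With decitabine 8 of 15 rose in limma and none fell, beside 29.8% of all genes called higher, with a median of 0.38 against 0.23. The highest were Igfbp4 (0.66, adjusted p = 0.0063), a secreted binding protein, and Insr (0.66, adjusted p = 0.0057), the insulin receptor. Igf2r, the receptor that clears Igf2 and is itself imprinted, was at 0.61 (adjusted p = 0.0079). The lowest were Ins2 at -0.11 and Ins1 at -0.03. Centring on kept probes called 4 genes higher, beside 11% of all genes, and the deposited log ratio none, beside 1.4%. Loess gave a median of -0.07, and centring on bright probes -0.38 with 6 genes called lower, beside 59.2% of all genes. Igf2r was named for its bond to Igf2 after its value was seen.

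The genes most like each of the 5 over the 4 arrays were found among 12202 named genes with at least 10 kept probes. They were Rasal1 for Igf2 (root mean square difference 0.029), Csnk1g2 for Ascl2 (0.021), Fosb for Kcnq1 (0.020), Thoc5 for Cdkn1c (0.017) and Phlda2's nearest, Cables1 (0.037). Within 0.1 there were 168, 383, 381, 91 and 120 genes. Among the 5 themselves the closest pair was Kcnq1 and Cdkn1c (0.14) and the most distant Cdkn1c and Phlda2 (0.28).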

How the data were processed

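The members and lists were chosen with earlier results of these data known. The submitters' processing notes name Agilent Feature Extraction 10.5, and 10.5.1.1 is the version per the file headers. Per the file headers, the deposited intensities are linear, background-subtracted and dye-normalized, with surrogates for signals near background. Surrogates filled the MeDIP channel at 60.1%, 50.3%, 25.9% and 31.5% of the 143 kept probes on the arrays of untreated WT, untreated KO, treated WT and treated KO cells. The deposited log10 ratio is Cy5 over Cy3. The identifiers of the authors' value table, on a log2 scale, match no probe column. Its rows were therefore compared by value: of 357133 with at least 3 non-zero values, 99.9% had the 4 values, to 4 decimals, of the negative log ratio of some spot in log2 units. It was not used further. Other deposited columns used are flags and annotation.

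Spots were averaged per probe. Kept probes (328399 of 520554) had input well above background and no non-uniformity flag on all 4 arrays, and genes needed at least 3. The 222 member probe sequences all matched mm9. Annotation was Gencode M1, which gave gene bounds. limma 3.58.1 (R 4.3.3) was fitted to all genes, additive in genotype and treatment, after a check on simulated data. Differences of 2 arrays carry no test. Named were the 5 genes, blocks of at least 3 kept probes no more than 1000 bp apart, single probes with MeDIP well above background, the highest and lowest of fixed lists, and the most alike genes. Alternatives were other background correction, loess, centring, filters, probe median, MeDIP alone, the deposited log ratio and base composition.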

Additional observations from a re-analysis of the deposited data

Results flagged for a closer look

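At the Kcnq1 probe at 150289602, with MeDIP well above background on all 4 arrays, decitabine moved the ratio by -0.54 in WT and by 0.24 in KO cells, in opposite ways. The first Kcnq1 block differed between KO and WT by -0.13 without and by 0.30 with treatment, also in opposite ways. Each group had 1 array, and neither difference was tested.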

How the results depend on the processing

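Values here are for the 5 genes as a median, in the order decitabine in WT cells (0.46), decitabine in KO cells (0.38), KO minus WT without (0.17) and with treatment (0.13). They moved to 0.43, 0.13, 0.47 and 0.19 with normexp, to -0.11, -0.24, -0.0325 and -0.0908 with loess, and to -0.17, -0.52, 0.13 and -0.18 when centred on probes bright in both channels. They moved to 0.20, 0.17, 0.17 and 0.14 with no filter on dim input, to 0.27, 0.25, 0.22 and 0.24 with the median over probes, and to 0.65, 0.58, 0.0391 and -0.0821 with the MeDIP channel alone. The deposited log ratio gave 0.42, 0.0727, 0.39 and 0.0244, removing base composition 0.11, 0.12, -0.0756 and 0.0298, and centring on kept probes, added after seeing the data, 0.30, 0.26, 0.0834 and 0.0807. With only probes bright on both arrays they were 0.60, 0.99, 0.0034 and 0.49, over few probes. The number of genes past the limma threshold for decitabine, 2, was 5 with the MeDIP channel alone and 0 with each of the 8 other settings, and for genotype, 0, it was 2 with normexp and 0 otherwise. Limma decitabine estimates turned negative with loess (Igf2 -0.19, Ascl2 -0.10, Kcnq1 -0.18, Cdkn1c -0.31, Phlda2 -0.0680), with centring on bright probes (-0.46, -0.34, -0.40, -0.39 and -0.43) and with base composition removed (Cdkn1c -0.0103, Phlda2 -0.0203). Genotype estimates turned negative for Ascl2 and Kcnq1 with loess (-0.19 and -0.25), bright centring (-0.11 and -0.0670), the MeDIP channel alone (-0.0639 and -0.12, and Igf2 -0.0270) and base composition (-0.0932 and -0.0319), and for Ascl2 when centred on kept probes (-0.0090). The cause was not tested. Slide as a block was not run, since each slide holds 1 array. No paired analysis was possible because the groups share 1 replicate number only, and the additive fit already compares treatments within each genotype. Signal over background limits all sizes: 111 of 143 kept probes had no array with MeDIP well above background.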
